A study of Mus musculus with 12 samples.

Results

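The lipoprotein and lipid transport genes Apoe, Apoc1, Clu, Lpl, Abca1, Abca7, Abcg1, Lrp1 and Sorl1 were followed in mouse hippocampus. These 9 genes were chosen by name, with earlier results of these data known. All 9 were found among the 24318 genes of the deposited FPKM table, and all 9 passed the filter on low values. The hippocampi came from mice aged 7 months and labelled 5xFAD or WT. The 5xFAD strain carries human transgenes with mutations of familial Alzheimer's disease, APP among them, which regulatory sequence of Thy1 expresses in neurons, and the WT mice carry none. The 12 samples form 4 groups of 3, a WT and a 5xFAD group under each of the title prefixes CG and AT, which the labels do not spell out. The CG libraries gave a level per gene as FPKM, a read density per transcript length and library size. The AT libraries gave a normalized signal for 7025 genomic intervals. These were read as back-splice junctions, which identify circular RNA, because the design text names an A-tailing preparation and RNase R, which digests RNA with free ends. No label ties a sample to its own animal, so the p-values describe the spread among these samples, which may be technical.

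In the brain, lipid is carried between cells on small lipoprotein particles that glia secrete. Apolipoprotein E is their main protein and a ligand of lipoprotein receptors, and the ABC transporters Abca1 and Abcg1 move cholesterol and phospholipid out of cells onto such particles. Lipoprotein lipase splits the triglyceride of lipoproteins, Lrp1 takes them up, and Sorl1 sorts cargo such as the amyloid precursor protein between compartments inside the cell. Variants near human APOE, CLU, ABCA1, ABCA7 and SORL1 are associated with Alzheimer's disease.

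Abca1, Abcg1 and Apoe are known targets of LXR, a nuclear receptor that senses oxysterols and binds, with RXR, direct repeats of AGGTCA spaced by 4 bases. The RefSeq promoter table (GRCm38.p6) held 5 of the 9 genes, with Abcg1, Clu, Lpl and Apoc1 not among them. The promoters of Abca1 and Apoe are shown because both genes were above all WT libraries in the same pair of 5xFAD libraries, as given below. Clu was above them too but had no listed promoter. The 250 bases before the start of Abca1 (chr4:53159896-53160145, minus strand) and before the outermost listed start of Apoe (chr7:19699189-19699438, minus strand) are printed 5′ to 3′ on the gene's strand, with a match to the repeat in capitals.
Abca1: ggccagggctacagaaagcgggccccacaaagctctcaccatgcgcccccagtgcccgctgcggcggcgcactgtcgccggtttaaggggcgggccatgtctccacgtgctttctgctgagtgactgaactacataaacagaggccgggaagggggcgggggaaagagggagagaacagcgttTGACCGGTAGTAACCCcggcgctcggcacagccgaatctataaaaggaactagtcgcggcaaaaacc
Apoe: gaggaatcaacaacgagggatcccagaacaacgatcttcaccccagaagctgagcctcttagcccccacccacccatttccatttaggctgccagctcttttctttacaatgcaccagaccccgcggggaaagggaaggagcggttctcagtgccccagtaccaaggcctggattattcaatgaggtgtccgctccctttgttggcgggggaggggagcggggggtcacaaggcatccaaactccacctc
The Abca1 match reads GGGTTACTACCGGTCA on the opposite strand, begins 67 bases before the start and has 3 mismatches to the 12 fixed letters of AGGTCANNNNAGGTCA. A second match with 3 mismatches, AGTGCAGTGAAGTTCA, lay 154 bases before 1 of the 2 listed starts of Sorl1. The listed Apoe windows of 300 bases held no match with 3 or fewer mismatches. Over both strands of all 32851 promoters of that length, 21.9% held such a match. The E-box CACGTG, a palindrome, occurred once in the Abca1 window and once in 1 of the 2 Sorl1 windows, and 7.15% of all promoters held it.

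Summed FPKM lay between 385214 and 412157 in the CG libraries, and the steps of the lowest values put their depths at 0.796 to 1.16 times that of WT replicate 1, with the number of reads unknown. Thy1, whose regulatory sequence drives the transgenes, had 1136 and 1172 FPKM for 5xFAD replicates 1 and 2 against 296, 308 and 340 for WT. The library labelled 5xFAD replicate 3 goes against its label, with a Thy1 value of 305 FPKM. The 9 genes and the counts of genes called are therefore given with that library under its label (6 libraries) and without it (5 libraries). Differences and other counts of further genes are for the 5 libraries unless stated. Each marker of neurons, astrocytes, oligodendrocytes and microglia was above 0 in every CG library. WT replicate 1 was the highest of the 6 libraries in 9 of 10 markers of choroid plexus and ependyma, the linings of the ventricles, all but Tmem212. The 10 summed to 2905 FPKM there, 94.9% of it from Ttr, with 50.1 and 78.3 for WT replicates 2 and 3, and 64.7, 83.3 and 509 in the order of the libraries labelled 5xFAD. Without Ttr the sums were 147 FPKM in WT replicate 1 and 16.4 to 42.3 in the others. The part of these cells in the values below was not tested, and each of the 9 genes is also given without WT replicate 1.

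Levels in WT, compared on the FPKM scale, which is per length, placed Apoe and Clu far above the rest. Apoe averaged 831 ± 186 FPKM (SD, n = 3) and ranked 22 of all genes listed, and Clu averaged 350 ± 43.6 and ranked 95. Sorl1 followed at 76.4 ± 5.25 FPKM and Lrp1 at 70.3 ± 5.66, with overlapping ranges. Abcg1 averaged 18.4 ± 1.62 FPKM, above Lpl at 11.7 ± 2.25 and Abca1 at 11.2 ± 0.821, and the ranges of Lpl and Abca1 overlapped. Abca7 at 3.69 ± 0.446 FPKM and Apoc1 at 2.62 ± 1.93 were the lowest, again with overlapping ranges. The remaining neighbours in this order had WT ranges that did not overlap. Together the 9 genes held 0.305% to 0.392% of summed FPKM in WT. The share was 0.546%, 0.498% and 0.340% for the libraries labelled 5xFAD.

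The CG comparison addresses which of these genes differ in level between 5xFAD and WT hippocampus. In 5xFAD replicates 1 and 2, Apoe, Clu and Abca1 were each above every WT library, at 1.70, 1.46 and 1.45 times the WT mean. Lpl and Apoc1 averaged 1.43 and 1.41 times the WT mean but overlapped WT, and Abca7, Abcg1, Lrp1 and Sorl1 lay within 0.940 to 1.09 times. None of these differences passed the test over all genes. Limma called 0 of the 9 genes at a Benjamini-Hochberg adjusted p under 0.05, with 6 libraries (0.0069% of all genes called) and with 5 (1.2%). At an unadjusted p under 0.05, limma counted 0 of the 9 with 6 libraries, against 2.92% of all genes. With 5 libraries it counted 4 of the 9, Apoe, Clu, Abca1 and Lpl, against 5.91% of all genes. With 6 libraries 0 of the 9 had groups without overlap (5.66% of all genes). With 5 libraries 3 of the 9 did, all higher in 5xFAD, against 10.6% of all genes higher and 18.1% in either direction.

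**Figure D1:**
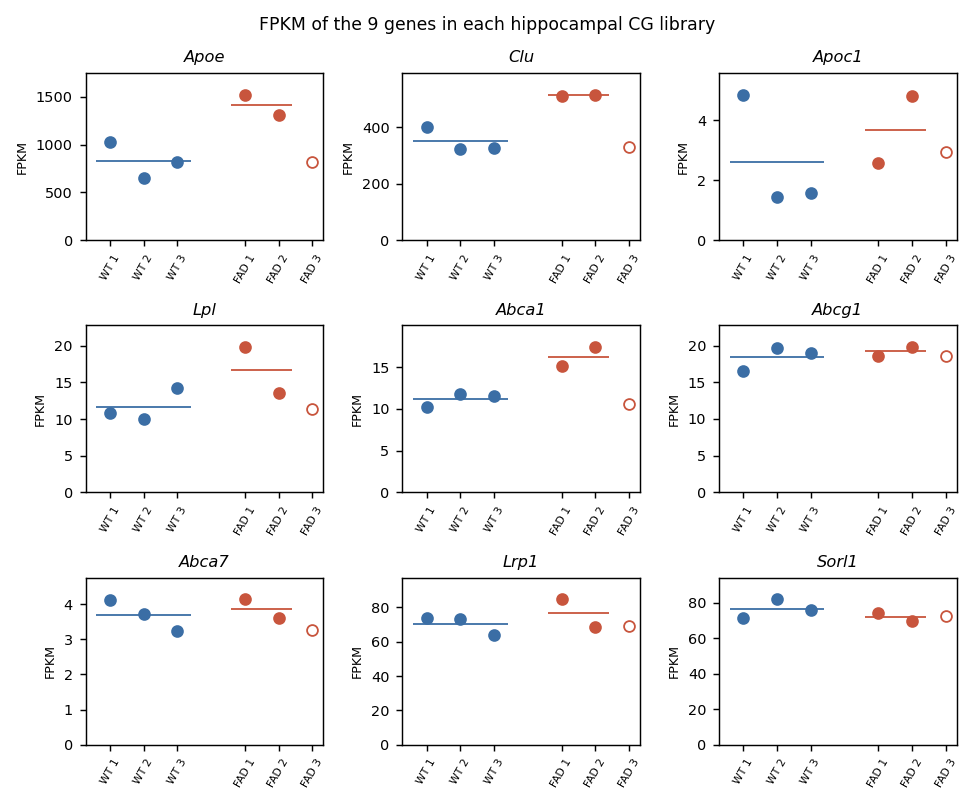
FPKM (vertical axis, from 0, own scale per gene) of the 9 genes in the 3 WT (blue) and 3 5xFAD (red) CG libraries; lines are the mean of WT and of 5xFAD replicates 1 and 2, and the open circle is the library labelled 5xFAD replicate 3. Apoe, Clu and Abca1 have both filled red points above all blue points, and all 9 open circles lie within the WT range.

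Apoe had 1519 and 1312 FPKM for 5xFAD replicates 1 and 2 against 1022, 651 and 821 for WT. The library labelled 5xFAD replicate 3, at 818 FPKM, lay inside the WT range, whose highest value came from WT replicate 1. On the log2(FPKM + 1) scale the 5-library difference was 0.79 (SE 0.21, 95% interval 0.30 to 1.27, limma adjusted p = 0.244). With 6 libraries it was 0.52 (SE 0.26, 95% interval -0.067 to 1.12, limma adjusted p = 1.00). Without WT replicate 1, the library with high choroid plexus markers, the 5-library difference was 0.95 (limma adjusted p = 0.0670), within a range of 0.0670 to 1.00 for that p over the alternatives run.

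Clu encodes clusterin, a secreted chaperone also known as apolipoprotein J. Its FPKM was 511 and 514 for 5xFAD replicates 1 and 2, 331 for the library labelled 5xFAD replicate 3, and 400, 323 and 327 for WT. Both of the former lay above WT, and WT replicate 1 was again the highest WT library. The 5-library difference was 0.56 (SE 0.14, 95% interval 0.23 to 0.88, limma adjusted p = 0.207), and 0.66 without WT replicate 1 (limma adjusted p = 0.0773). With 6 libraries the difference was 0.35 (95% interval -0.086 to 0.78). Clu passed under 1 alternative, array quality weights, which let each library's weight follow its scatter (0.62, SE 0.12, limma adjusted p = 0.0485). That setting called 257 of 14527 genes, against 174 in the main 5-library fit. Without WT replicate 3 the limma adjusted p of Clu was 0.796.

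Apoc1, a small apolipoprotein whose gene lies next to Apoe in the RefSeq gene order, varied most within WT. Its WT values were 4.85, 1.43 and 1.58 FPKM, and those labelled 5xFAD were 2.56, 4.80 and 2.96. WT replicate 1 was the highest of all 6 libraries, so the groups overlapped. The 5-library difference was 0.45 (95% interval -0.48 to 1.38), and it was 0.86 without WT replicate 1 (limma adjusted p = 0.255) and 0.10 without 5xFAD replicate 2. With 6 libraries the difference was 0.39 (95% interval -0.41 to 1.18). Apoc4 and Apoc2, the next genes of the same cluster, were listed at 0 in all 3 WT libraries, and their means were below the filter. In those labelled 5xFAD, Apoc4 had 0.765, 0 and 0 FPKM and Apoc2 had 0.292, 0.460 and 0.

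Lpl, the lipase that frees fatty acids from lipoproteins, had 19.8 and 13.6 FPKM for 5xFAD replicates 1 and 2, against 10.8, 10.0 and 14.3 for WT. Of the libraries labelled 5xFAD only replicate 1 lay above WT, and replicate 3 had 11.4 FPKM. The 5-library difference was 0.47 (SE 0.20, 95% interval 0.0038 to 0.94, limma adjusted p = 0.836), and it was 0.22 without 5xFAD replicate 1 and 0.43 without WT replicate 1. With 6 libraries the difference was 0.31 (95% interval -0.16 to 0.78).

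Among the transporters, Abca1, which loads lipid onto apolipoproteins, had 15.1 and 17.4 FPKM for 5xFAD replicates 1 and 2 against 10.3, 11.8 and 11.6 for WT. The library labelled 5xFAD replicate 3, at 10.6 FPKM, was inside the WT range. With that library included (6 libraries), the Abca1 difference was 0.31 (95% interval -0.083 to 0.70). The 5-library difference was 0.50 (SE 0.12, 95% interval 0.20 to 0.79, limma adjusted p = 0.208, range 0.0977 to 0.922 over the alternatives run), and 0.44 without WT replicate 1 (limma adjusted p = 0.320). Abcg1, which passes cholesterol to particles that already hold lipid, had WT values of 16.6, 19.6 and 19.0 FPKM, and those labelled 5xFAD were 18.6, 19.8 and 18.6. Its 5-library difference was 0.060 with a 95% interval of -0.22 to 0.34, and -0.010 without WT replicate 1. With 6 libraries the difference was 0.047. Abca7, a phospholipid transporter linked to phagocytosis, had WT values of 4.11, 3.73 and 3.23 FPKM, and those labelled 5xFAD were 4.14, 3.61 and 3.26. Its 5-library difference was 0.058 with a 95% interval of -0.28 to 0.40, and 0.12 without WT replicate 1. With 6 libraries the difference was -0.0063. The groups of Abcg1 and of Abca7 overlapped with 5 and with 6 libraries.

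The uptake and sorting receptors overlapped between the groups as well. Lrp1, a large endocytic receptor, had WT values of 73.9, 73.2 and 63.8 FPKM, and those labelled 5xFAD were 84.7, 68.7 and 69.4. Its 5-library difference was 0.12 (95% interval -0.19 to 0.43), -0.029 without 5xFAD replicate 1 and 0.16 without WT replicate 1. With 6 libraries the difference was 0.075. Sorl1 had WT values of 71.3, 81.8 and 76.1 FPKM, and those labelled 5xFAD were 74.3, 69.4 and 72.6. Its difference was -0.086 with 5 libraries (95% interval -0.35 to 0.17) and -0.081 with 6, and -0.13 with 5 less WT replicate 1.

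**Figure D2:**
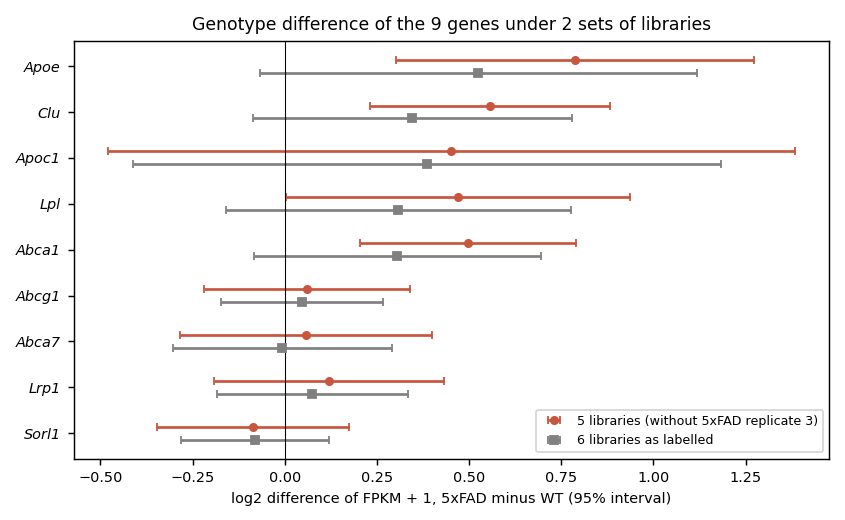
Log2 difference of FPKM + 1 between 5xFAD and WT (horizontal axis) for each gene (vertical axis), with 95% intervals from limma, for 5 libraries (red) and 6 libraries (grey). The red intervals of Apoe, Clu, Abca1 and Lpl lie above 0 and the other 5 cross it, while all 9 grey intervals cross 0.

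Microglial markers were higher in the same pair of 5xFAD libraries. The 10 microglial markers summed to 699 and 654 FPKM for 5xFAD replicates 1 and 2, 197 for the library labelled 5xFAD replicate 3 and 179 to 202 over WT, and limma called 8 of 10 higher with 5 libraries, against 1.18% of all genes. The 10 plaque-associated microglial genes summed to 1091, 973 and 276 FPKM in that order, with 275 to 320 over WT, and 9 of 10 were called higher (8 of 10 without WT replicate 1). Of these, Cst7, Clec7a and Itgax passed the filter only through their 5xFAD values, and 6 of the other 7 were called. For the 10 astrocyte markers the sums were 1697, 1823 and 1373 FPKM, with 1154 to 1459 over WT, and 1 of 10, Gfap, was called higher. Without Gfap the astrocyte sums were 1108, 1374 and 1267 FPKM, with 1036 to 1359 over WT. Neuronal marker sums were 2850, 2968 and 3090 FPKM, with 2919 to 3292 over WT and 0 of 10 called. Oligodendrocyte marker sums were 2109, 2163 and 1729 FPKM, with 1753 to 1906 over WT and 0 of 10 called. Of 7 markers of meninges and fibroblasts, 1, Dcn, was called lower (0.0138% of all genes), with 15.1, 13.4 and 28.7 FPKM in those labelled 5xFAD and WT values of 27.2, 22.7 and 26.3. The 7 summed to 32.5, 35.9 and 67.1 FPKM in the same order, with 42.3 to 97.9 over WT, the highest in WT replicate 1. With 6 libraries limma called 0 genes of each of these marker lists (0.0069% of all genes called). In whole tissue, more cells of a type and more RNA per cell cannot be told apart, and the part of these cell types in the values of Apoe, Clu and Abca1 was not tested.

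**Figure D3:**
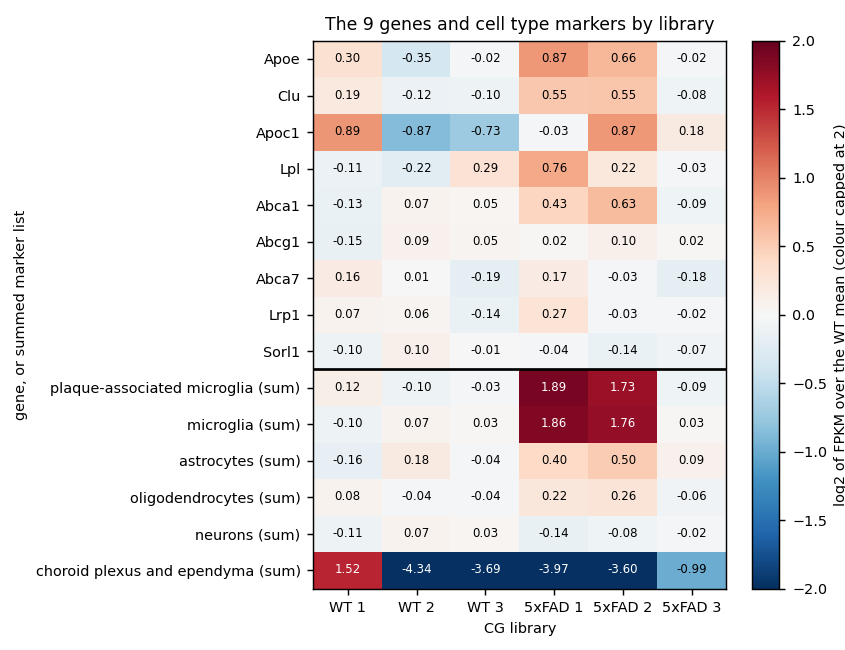
Log2 of FPKM over the WT mean in each CG library (columns) for the 9 genes (above the line) and for summed marker lists (below), with the value in each cell and colour capped at 2. Apoe, Clu and Abca1 are at 0.43 to 0.87 in 5xFAD 1 and 2, where both microglial sums are at 1.73 to 1.89; the choroid plexus row is set against a WT mean that rests mostly on WT 1.

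The genes with the most similar course over the 6 CG libraries were taken by Pearson correlation of log2(FPKM + 1) among 9622 other genes, for the 5 of the 9 genes that spanned at least 0.5 on that scale. For Abca1 they included Mylip (r = 0.998), a ubiquitin ligase gene that LXR induces, and Litaf (r = 0.986). Apoe was followed most closely by Cd81 (r = 0.993), a tetraspanin, Eif3l (r = 0.991) and Slc39a7 (r = 0.990). Clu gave Skap2 (r = 0.997), Rplp0 (r = 0.993) and Trf (r = 0.991), the transferrin gene. Lpl gave Ebp (r = 0.996), an enzyme of cholesterol synthesis, 2410006H16Rik (r = 0.978) and Cadm4 (r = 0.971). Apoc1 gave Dnajc4 (r = 0.979), Ifitm2 (r = 0.971) and Zdhhc18 (r = 0.970). Among the 9 genes themselves, Apoe and Clu had r = 0.960 and Apoc1 and Sorl1 had r = -0.908. These are the highest of many correlations over 6 points that share each library's depth and makeup, and they are given as a description.

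Other genes of the pathway came from 6 lists with 107 genes, of which 106 were in the table and 83 passed the filter. Limma called 0 of the 83 with 5 and with 6 libraries. With 5 libraries, 10 of 83 were higher in 5xFAD at an unadjusted p under 0.05, against 4.96% of all genes, and 1 was lower, against 0.943%. The 10 include Ch25h, which passed the filter only through 5xFAD, and the 1 is Angptl4, whose mean over 5xFAD replicates 1 and 2 was below it. Of the 83 differences 42 were positive, with a median of 0.0041. For the 9 genes 8 were positive with a median of 0.45, and the median over all genes tested was -0.015. The 9 genes and the lists were chosen with earlier results of these data known, so this contrast is a description only. Of all genes tested 45.7% were positive with 5 libraries, the share to set beside each count of positive differences here. Of the 8, Abca7, Abcg1 and Lrp1 changed sign when 1 library was left out.

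Among genes of lipid uptake, storage and transfer inside the cell, 14 of 20 tested had positive 5-library differences, with a median of 0.12. Npc2, which hands cholesterol out of the lysosome, had 19.7 and 19.4 FPKM for 5xFAD replicates 1 and 2, 10.6 for the library labelled 5xFAD replicate 3, and 13.3, 8.77 and 10.0 for WT. Its 5-library difference was 0.83 (SE 0.17, limma adjusted p = 0.0939). It passed without WT replicate 1 (0.98, limma adjusted p = 0.0137), a fit that called 174 of 14498 genes. It also passed with array quality weights (0.88, limma adjusted p = 0.0184), which called 257 of 14527 genes against 174 in the main fit. Npc2 did not pass without WT replicate 2 or without WT replicate 3 (limma adjusted p = 0.190 and 0.354). Ch25h, which makes the oxysterol 25-hydroxycholesterol, was below the filter in all 3 WT libraries, with WT values of 0.0643, 0.325 and 0.197 FPKM and 1.98, 0.791 and 0.0558 in those labelled 5xFAD. The lipid droplet coat gene Plin2 differed by 0.56 and the sterol carrier Stard4 by 0.61 in the 5 libraries, neither past the test.

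Most of the other genes named as apolipoproteins were low, with 5 of 15 past the filter. The median of those 5 was -0.066, the value of Apool, and 1 of them was positive. The positive gene was Apod, a lipocalin of glia. Its WT values were 70.5, 54.1 and 55.2 FPKM, with 73.5, 94.3 and 68.5 in those labelled 5xFAD. The 5-library difference was 0.48 (SE 0.16, limma adjusted p = 0.548). Apoc3, Apoa2 and Apool differed by -0.70, -0.35 and -0.066, at 4.08 FPKM or less in every library. Apoa2 passed the filter through WT alone, with a mean of 0.768 FPKM, against 0.370 in 5xFAD replicates 1 and 2.

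Of 9 tested genes of lipases and lipoprotein remodelling, 6 had positive 5-library differences (median 0.074). The 6 include Lipg, named for this only, which passed the filter through 5xFAD alone (mean 0.647 FPKM, against 0.486 in WT). Lmf1, which lipoprotein lipase needs to mature, had WT values of 6.84, 6.16 and 6.16 FPKM and 9.49, 8.23 and 6.91 in those labelled 5xFAD, a 5-library difference of 0.41 (limma adjusted p = 0.397). Angptl4, an inhibitor of that lipase, differed by -0.41, the lysosomal lipase Lipa by 0.25 and the cholesterol esterifying enzyme Lcat by 0.27, none past the test.

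Of 14 other ABC transporters, 5 had positive 5-library differences (median -0.035). Abca9 differed by 0.73 (SE 0.20, limma adjusted p = 0.293), the peroxisomal transporter Abcd2 by 0.31, and Abca5 by -0.27. Of 19 other genes listed by name with the lipoprotein receptor and VPS10 sorting receptor families and their partners, 8 were positive (median -0.032). Ldlrad4 differed by 0.22 and Lrp10 by 0.23, neither past the test. Of 16 LXR and SREBP regulators, 8 were positive (median 0.020). Mylip differed by 0.41 and the lipid synthesis regulator Srebf1 by 0.38 (limma adjusted p = 0.415 and 0.583), Ppard by 0.28 and Insig1 by 0.25.

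**Figure D4:**
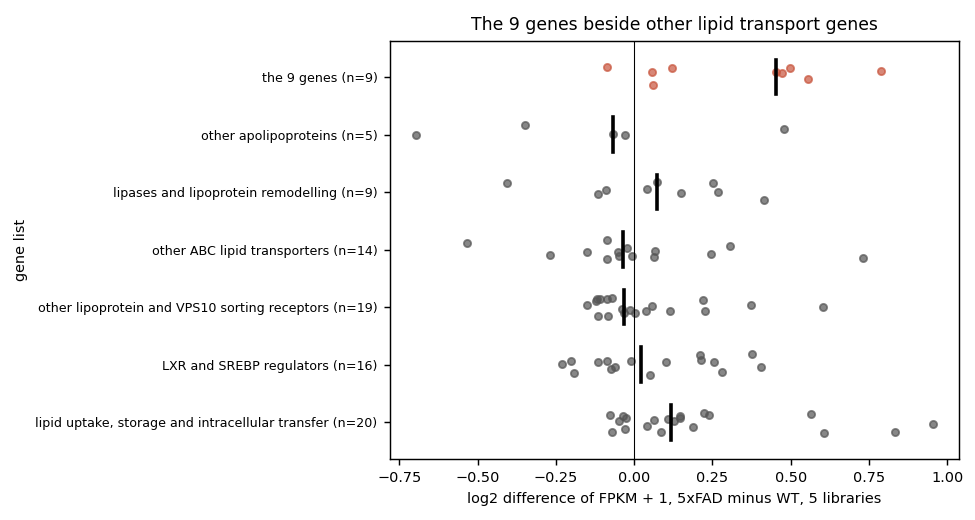
Log2 difference of FPKM + 1 between 5xFAD and WT over 5 libraries (horizontal axis) for the 9 genes (red) and the tested genes of 6 other lists (grey), 1 point a gene and a black bar at the median. The median of the 9 genes is 0.45 and those of the 6 lists lie between -0.066 and 0.12; no point passed the test over all genes.

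The AT comparison addresses circular RNA of the same genes. Junctions were listed for 2 of the 9 genes, 6 for Sorl1 and 1 for Abca1, among 7025 junctions of 2948 genes, and 139 genes had more listed junctions than Sorl1. For the other 7 genes no junction was analysed here. Over all junctions the lowest mean signal in the higher group was 2.13, so a junction below that level could not be seen. Signals were whole multiples of 1 step per library, which gave 191408 to 695539 recovered reads per library, the fewest in 5xFAD replicate 1. Limma called 0 of the 7 junctions (0% of all), and edgeR and DESeq2 called 0 on the recovered reads. Over all 7025 junctions edgeR called 0 and DESeq2 called 1. At an unadjusted p under 0.05 there were 0 of the 7 by limma (5.68% of all junctions) and 0 by edgeR (2.88%). The authors' deposited table called 0 of the 7, against 3.76% of all, and 0 of the 7 had groups without overlap, against 11.1% of all.

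The Sorl1 junctions lie on mm9 chromosome 9 between positions 41790988 and 41880429. The junctions starting at 41865353, 41871797 and 41875879 share the end at 41880429, and 2 share the start at 41865353, so their intervals overlap. The most abundant, chr9:41865353-41880429, had signals of 11.97, 26.0 and 31.3 for WT (32, 114 and 134 reads) and 14.7, 29.8 and 14.8 for 5xFAD (17, 132 and 62 reads). Each genotype held low and high libraries, and the log2(signal + 1) difference was -0.19 (SE 0.49). The next, chr9:41865353-41872187, had 23.9, 16.2 and 10.8 for WT and 35.5, 16.3 and 14.1 for 5xFAD, a difference of 0.31 (SE 0.50). For chr9:41871797-41880429 the signals were 17.96, 10.9 and 16.1 for WT and 15.6, 11.98 and 18.9 for 5xFAD, a difference of 0.047 (SE 0.46). The groups overlapped at all of these.

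The remaining Sorl1 junctions had lower mean signals. chr9:41875879-41880429 had 3.74, 8.43 and 11.7 for WT and 3.46, 6.78 and 12.4 for 5xFAD, on 4 to 52 reads. chr9:41790988-41797549 had 0, 5.24 and 7.25 for WT and 9.53, 2.94 and 4.06 for 5xFAD. chr9:41808326-41822657 had 0, 7.75 and 2.34 for WT and 3.46, 6.78 and 8.60 for 5xFAD, a difference of 1.17 (SE 0.78, limma adjusted p = 0.918). Both zeros came from WT replicate 1, where 0 of 438790 reads allows a signal of up to 1.12 (3 reads). Without that library the differences at chr9:41790988-41797549 and chr9:41808326-41822657 were -0.27 and 0.36, from 0.68 and 1.17 with it.

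Summed over its 6 junctions, Sorl1 had signals of 57.6, 74.5 and 79.5 for WT and 82.3, 74.6 and 72.9 for 5xFAD, on 95 to 340 reads. The means were 70.6 ± 11.5 and 76.6 ± 5.01 (SD, n = 3 each). A two-sided exact permutation test of the sums gave p = 0.5, where 3 against 3 cannot go below 0.1. Of the 6 libraries, WT replicate 1 was the lowest.

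The Abca1 junction, chr4:53140468-53145887, had signals of 13.8, 2.28 and 0.468 for WT (37, 10 and 2 reads) and 5.20, 6.10 and 3.82 for 5xFAD (6, 27 and 16 reads). WT libraries lay on both sides of all 5xFAD libraries. The difference was 0.52 (SE 0.79) by limma and -0.13 as the log2 ratio in the authors' deposited table, so its sign differed between scales. Of the 107 pathway genes, 19 had 59 listed junctions, 15 of them in Lrp1b, and 0 were called by limma or edgeR. At an unadjusted p under 0.05 limma counted 3 of the 59, all lower in 5xFAD (3.17% of all junctions). EdgeR counted 1, in Insig2, which is none of limma's 3. The 3 by limma lay in Lrp1b, Ncoa1 and Scarb2, named, like Insig2, after their values were seen, and had 22 reads or fewer in every library and 0 in 5xFAD replicate 1, the shallowest.

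**Figure D5:**
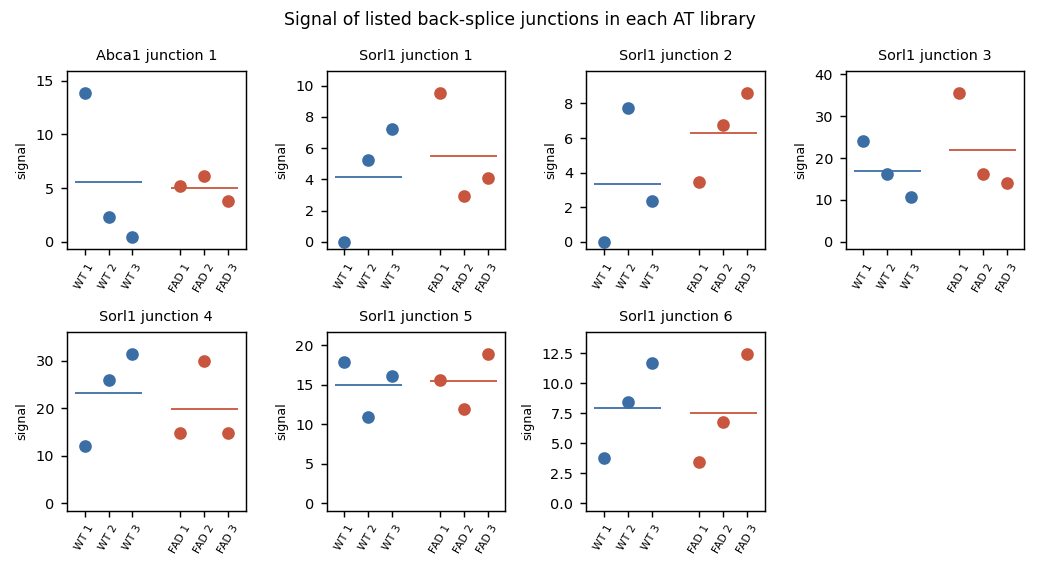
Normalized signal (vertical axis, from 0, own scale per panel) of the 7 listed junctions in the 3 WT (blue) and 3 5xFAD (red) AT libraries, with lines at the group means; Sorl1 junctions are numbered by position. The groups overlap in all 7 panels, and WT 1 is at 0 in Sorl1 junctions 1 and 2.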

How the data were processed

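Hippocampal RNA of 12 samples was described in 2 deposited tables. The labels' protocols name TRIzol for RNA extraction, Ribo-Zero for rRNA removal and a paired-end HiSeq run. The build was mm9 and DESeq was used, per the submitters' processing notes. Not given in the sources used here are the tools behind FPKM and junctions and any use of strand.

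The authors deposited FPKM per gene for the CG libraries. For the AT libraries they deposited a normalized signal per interval, a log2 ratio, a p-value and an adjusted p-value, per the file headers. Whole reads were recovered by dividing each signal by its library's smallest step, and 100% of values were whole within 0.01.

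Differences were tested two-sided by limma 3.58.1, its trend option on, after a log2(value + 1) transform, over all features averaging at least 0.5, with Benjamini-Hochberg adjusted p under 0.05 as the threshold. Adding 1 shrinks the differences of low genes. The alternatives were other pseudocounts, filters and scalings, no mean trend, array quality weights, a replicate block, each library left out, and on AT reads edgeR's quasi-likelihood test (4.0.16) and DESeq2 (1.42.0), in R 4.3.3. Floors from reads cover counting error only.

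The 9 genes, the lists and the 5-library fit were chosen with earlier results of these data known. Genes were named by rule: the 9, Thy1, up to 4 per pathway list and up to 2 per marker list with the smallest p in the 5-library fit, and 3 most correlated genes per gene spanning at least 0.5. Some genes that the rule names are not reported here. Promoter sequences are from RefSeq (GRCm38.p6), and no coordinates were moved between builds.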

Additional observations from a re-analysis of the deposited data

How the results depend on the processing

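The count of the 9 genes called stayed at 0 under every alternative run of the 6-library fit, and of the 5-library fit except array quality weights, which called 1 (Clu). The count of pathway list genes called stayed at 0 with 6 libraries. With 5 libraries it was 1 (Npc2) with array quality weights, and 0 to 1 when 1 library was left out, the 1 being Npc2 without WT replicate 1. The count of the 7 junctions called was 0 under every alternative run. Signs that reversed belong to differences that passed no test, and the cause was not tested. With array quality weights Abca7 and Apoa2 gave 0.065 and 0.060 with 6 libraries and Apool 0.034 with 5. Apool gave -0.0053 with FPKM rescaled to 1 total and -0.041 with quantile normalization (6 libraries). With 1 of the 6 libraries left out, Abca7 ran from -0.079 to 0.059, Abcg1 from -0.023 to 0.092, Lrp1 from -0.022 to 0.13 and Apool from -0.069 to 0.13. With 1 of the 5 left out, Abca7 ran from -0.020 to 0.14, Abcg1 from -0.010 to 0.11, Lrp1 from -0.029 to 0.27, Apool from -0.25 to 0.12 and Lcat from -0.036 to 0.58. In AT, the Abca1 junction ran from -0.23 to 1.44 and Sorl1 junctions 1 and 3 to 6 (by position) from -0.27 to 1.25, -0.086 to 0.58, -0.58 to 0.076, -0.15 to 0.21 and -0.50 to 0.30. On recovered reads the Abca1 junction gave -0.0056 by edgeR and -0.017 by DESeq2, with -0.13 in the authors' deposited table, and Sorl1 junction 6 gave 0.0023 by edgeR and 0.033 by DESeq2. Over all genes, the 5-library count of 174 was 257 with array quality weights, 174 without WT replicate 1, 106 without WT replicate 2 and 84 without WT replicate 3.

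Replicate numbers were not taken to pair the samples, since they come from the titles only. Deviations of same-numbered libraries correlated at 0.415, 0.279 and 0.0398 in CG and 0.0676, 0.0884 and 0.0401 in AT. Between different numbers the correlations ran from -0.358 to 0.153 in CG and from -0.113 to 0.0815 in AT. Most libraries correlated best with their own number, except WT replicate 3 and 5xFAD replicate 3 in CG and 5xFAD replicate 3 in AT. Whether the numbers mark pairs was not tested. A replicate block called 0 of the 9 genes, 0 pathway list genes and 0 of the 7 junctions, and moved the 5-library count over all genes from 174 to 201. It gave -0.015 for Abca7 with 5 libraries, where WT replicate 3 has no partner. In that fit Lpl was at 0.61 and Abca1 at 0.52 (limma adjusted p = 0.125 and 0.0977). Apoe was at 0.79 and Clu at 0.51 (limma adjusted p = 0.262 and 0.377). The 5xFAD arm of the 5-library fit has 2 libraries. Depth in AT was lowest in 5xFAD replicate 1, with 191408 reads, and the zeros of Sorl1 junctions 1 and 2 lay in WT replicate 1, with 438790.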
